A study of Homo sapiens with 12 samples.

Results

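The genes described here encode the machinery that licenses replication origins, opens the DNA, copies it and keeps the replication fork intact. They were taken as a named list of 50 genes, and all 50 were found among the 17818 gene identifiers of the expression table, in a study of colorectal cancer cells that overexpress the deubiquitinase gene USP51. Messenger RNA was measured in 12 libraries, 3 for each of 4 groups: SW480 cells with a vector (genotype NC), SW480 cells with USP51 overexpressed (USP51-OE), HCT116 cells with a vector and HCT116 cells with USP51-OE. SW480 and HCT116 are established human colorectal cancer cell lines, and both were grown in DMEM with 10% fetal bovine serum. The labels do not say whether the overexpressing cells are 1 clone or a pool, or which promoter drives the transgene.

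The values are the authors' means of each group, because the single-library columns carry codes that match no label. The means are named by line and by a letter, C or E. C was read as NC and E as USP51-OE, so each comparison of USP51 with vector depends on this assignment, which the USP51 level itself was used to check. With 1 mean per group there is no replicate check and no p-value, and a difference cannot be set against the spread between libraries. Members were therefore described by their size and by how many lay on each side of the control mean, beside the same share among all genes tested, meaning genes with at least 1 TPM (a level per transcript length, scaled to the same total in every column) in at least 1 of the 2 groups compared. Differences are given as log2((TPM + 1) / (TPM + 1)), which slightly understates those of low genes. A count ratio is the quotient of 2 means after division by the total count of each, with its 95% exact Clopper-Pearson interval in parentheses. Such an interval handles a mean as if it were 1 library and covers counting error only. Where a pair of levels is given for a line, vector comes first and USP51 second.

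Replication starts in the G1 phase, when the origin recognition complex (ORC), CDC6 and CDT1 load the ring-shaped MCM2-7 helicase onto origins, and geminin (GMNN) blocks CDT1 once S phase has begun. The kinase CDC7 with DBF4, and adaptors such as TOPBP1, then recruit CDC45 and the GINS proteins, which turn MCM2-7 into the active CMG helicase. Polymerase alpha with primase starts each strand, polymerase epsilon and polymerase delta extend them on the PCNA clamp, and the fork protection proteins hold helicase and polymerase together. Most of these genes are transcribed as cells approach S phase under the E2F transcription factors, and rapidly dividing colorectal cancer cells express them strongly.

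Promoter sequence from RefSeq (GRCh38.p14, 250 bases before to 50 bases after the start site) was given for 43 of the 50 members. Of these 43, 32 (74.4%) held on either strand at least 1 of 3 heptamers that resemble the core of E2F binding sites, against 21.7% of 10752 genes with at least 1 TPM in a group. The heptamer TTCCCGC was held by 17 members (39.5%, against 12.8% of those genes). The heptamer TTGGCGC was held by 13 members (30.2%, against 6.07%), and TTCGCGC by 11 (25.6%, against 4.98%). Matches on opposite strands can overlap. By window, the share was 34 of 55 (61.8%) for the members and 11% of all 35116 windows of the same length. The GC box GGGCGG was held by 34 members (79.1%) and by 77.6% of the same genes. CCAAT was held by 25 members (58.1%) and 43.1%. At least 1 of the 3 heptamers was held by 17 of 22 E2F target genes outside the replication machinery that had a window (77.3%). The shares were 34.2% of 38 other replication genes and 12% of 25 mitosis genes, from the lists set beside the members below. A match is a stretch of letters and does not show that a factor binds there.

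The windows of 6 members are printed 5′ to 3′ on the gene's strand, with the heptamers in capitals. They are shown because RFC4, TOPBP1 and MCM2 had the lowest ratios to control in SW480, GINS3 and CDT1 had the lowest in HCT116, and PCNA was the most abundant member.
RFC4 (chr3:186806433-186806732, minus strand): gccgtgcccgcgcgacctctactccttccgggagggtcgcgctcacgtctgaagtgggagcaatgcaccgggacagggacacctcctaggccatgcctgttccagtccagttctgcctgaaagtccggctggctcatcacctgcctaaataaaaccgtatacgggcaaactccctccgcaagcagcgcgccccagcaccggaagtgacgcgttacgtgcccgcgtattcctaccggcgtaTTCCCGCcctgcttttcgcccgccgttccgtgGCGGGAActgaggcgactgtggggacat
TOPBP1 (chr3:133661892-133662191, minus strand): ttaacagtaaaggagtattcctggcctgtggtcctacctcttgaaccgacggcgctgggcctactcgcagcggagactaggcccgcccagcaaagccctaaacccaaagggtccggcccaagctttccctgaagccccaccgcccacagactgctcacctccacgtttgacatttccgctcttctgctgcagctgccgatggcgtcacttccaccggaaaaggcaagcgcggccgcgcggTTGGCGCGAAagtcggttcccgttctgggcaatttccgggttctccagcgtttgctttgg
MCM2 (chr3:127598161-127598460, plus strand): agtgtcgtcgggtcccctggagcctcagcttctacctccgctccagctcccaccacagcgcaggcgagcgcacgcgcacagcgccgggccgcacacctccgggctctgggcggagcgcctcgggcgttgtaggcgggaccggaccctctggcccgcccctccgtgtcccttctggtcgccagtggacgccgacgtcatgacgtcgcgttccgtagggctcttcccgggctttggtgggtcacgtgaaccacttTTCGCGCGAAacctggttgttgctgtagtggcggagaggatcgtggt
GINS3 (chr16:58392221-58392520, plus strand): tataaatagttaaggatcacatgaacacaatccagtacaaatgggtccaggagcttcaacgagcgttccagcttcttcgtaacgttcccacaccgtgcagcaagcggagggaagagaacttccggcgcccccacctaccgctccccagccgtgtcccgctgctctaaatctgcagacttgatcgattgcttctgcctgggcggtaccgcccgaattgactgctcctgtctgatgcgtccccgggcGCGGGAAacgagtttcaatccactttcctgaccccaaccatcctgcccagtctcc
CDT1 (chr16:88803539-88803838, plus strand): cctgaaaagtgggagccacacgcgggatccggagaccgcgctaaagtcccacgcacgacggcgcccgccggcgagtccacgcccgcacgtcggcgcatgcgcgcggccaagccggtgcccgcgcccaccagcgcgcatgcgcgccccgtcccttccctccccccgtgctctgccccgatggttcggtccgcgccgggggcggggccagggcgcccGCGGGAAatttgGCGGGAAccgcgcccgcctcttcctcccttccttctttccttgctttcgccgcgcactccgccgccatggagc
PCNA (chr20:5126573-5126872, minus strand): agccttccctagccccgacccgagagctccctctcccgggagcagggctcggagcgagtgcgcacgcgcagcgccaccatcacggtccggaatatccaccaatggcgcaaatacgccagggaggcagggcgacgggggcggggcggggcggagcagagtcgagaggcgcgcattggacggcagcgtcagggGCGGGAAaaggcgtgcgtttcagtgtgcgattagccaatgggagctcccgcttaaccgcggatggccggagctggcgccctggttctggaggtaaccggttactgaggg

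In MCM2 the heptamer lay just inside the transcribed sequence and its 2 matches, TTCGCGC and its reverse complement, overlapped. In TOPBP1 a TTGGCGC overlapped the reverse complement of the heptamer TTCGCGC just before the start site. CDT1 and RFC4 held 2 separate matches each, while GINS3 and PCNA held 1. The 32 members with a heptamer had a median log2 ratio with USP51 of -0.11 in SW480 and -0.05 in HCT116, and the 11 members whose windows held none had medians of -0.07 and -0.07.

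The labels and depth were checked first. The USP51 transcript had 0.513 and 25.7 TPM in SW480, while HCT116 listed 0 and 40.8 TPM. Group means summed to between 15506686 and 15920306 estimated counts. Of 10 markers of colon epithelium 8 reached 1 TPM in some group, with summed levels of 6185 to 11474 TPM. VIL1, a brush border gene, was at 0.03 and 0.02 TPM in HCT116. The 5 fibroblast markers in the table summed to 0.173 to 0.343 TPM by group, and the 4 endothelial ones to 0.23 to 0.383 TPM. The 5 leukocyte markers in the table summed to 4.27 to 7.16 TPM, mostly CD68, the one that reached 1 TPM. Each member rested on 239 to 13177 counts in a group.

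All 50 members were expressed in both lines. Together they made up 4286 TPM in SW480 controls, 3960 TPM in SW480 with USP51, 4123 TPM in HCT116 controls and 3854 TPM in HCT116 with USP51, or 0.429%, 0.396%, 0.412% and 0.385% of the summed TPM. The combined level was thus lower with USP51 in both lines. PCNA, the sliding clamp that holds polymerases on DNA, led in all 4 groups, and MCM7 came next. The lowest member was CLSPN, the fork adaptor claspin that activates CHK1, in 3 groups, and GINS4 in HCT116 controls. The range from lowest to highest spanned 75.2-fold in SW480 controls and 44.8-fold in HCT116 controls. The order of levels was kept within a line (Spearman rho 0.993 between control and USP51 in SW480 and 0.993 in HCT116, over the 50 genes of libraries made alike) and less so between the control groups (rho 0.838).

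**Figure D1:**
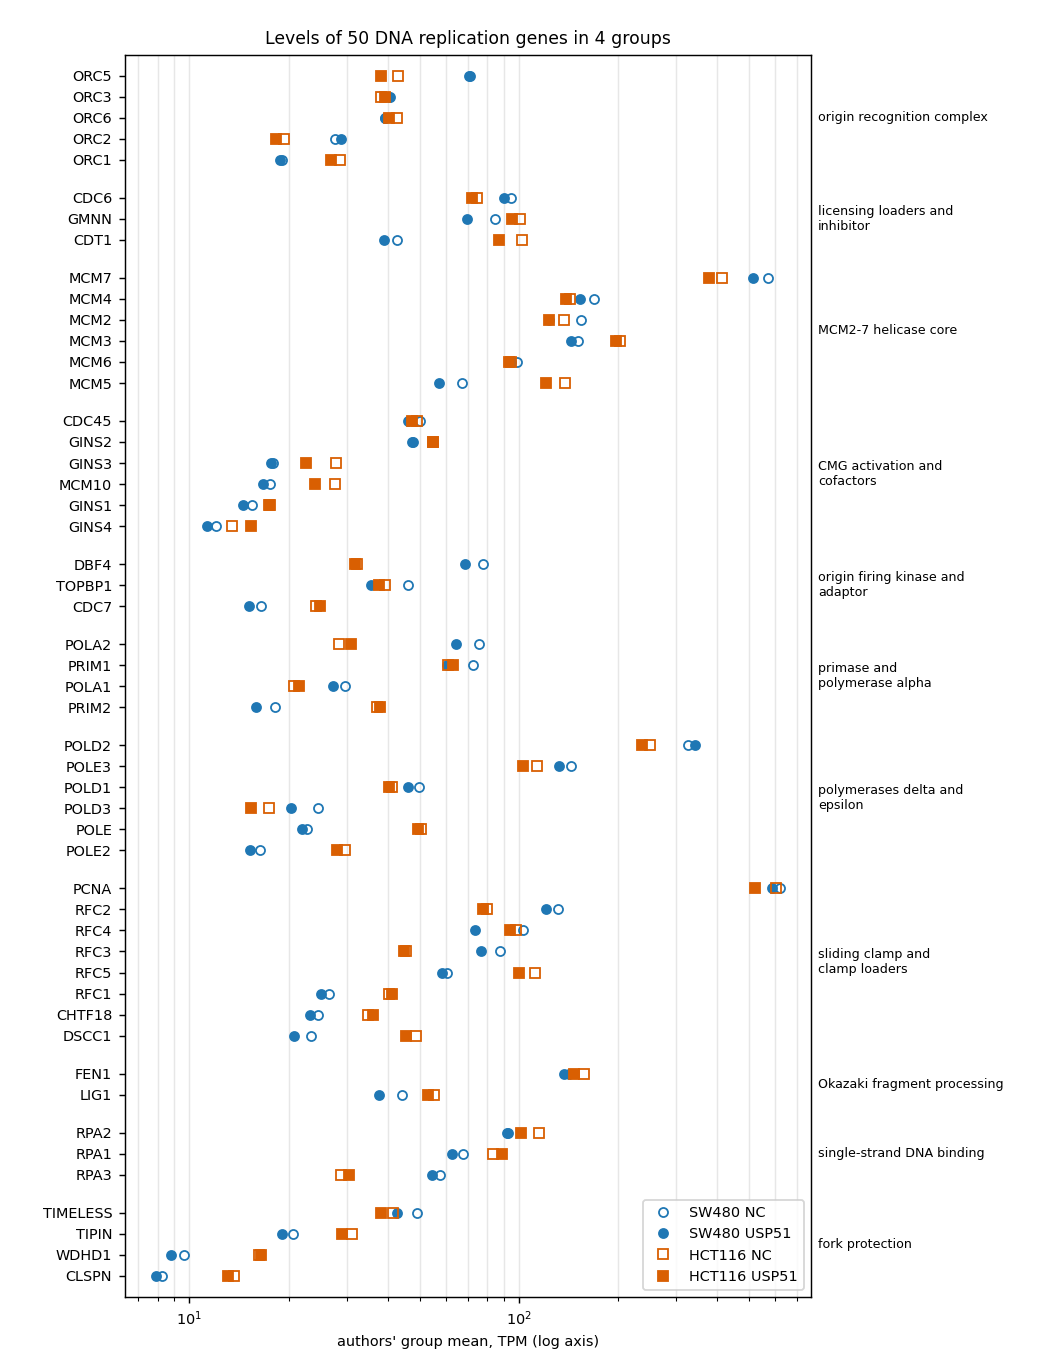
Level of each of the 50 replication genes (TPM, log axis) as the authors' mean in SW480 (blue circles) and HCT116 (orange squares), open for NC and filled for USP51, grouped by role. Filled and open symbols of a line lie close together, while the lines stand further apart for genes such as POLA2, DBF4, CDT1 and POLE.

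USP51 overexpression was compared with vector in each line. In SW480, 45 of the 50 members lay below their control mean, beside 61.1% of all 12175 genes tested, and 5 lay above it, beside 38.8% of all genes. Their median log2 ratio was -0.10, against -0.04 over all genes. The differences were small: 5 members were at least 1.2-fold lower, near the 10.1% of all genes, and 0 were at least 1.2-fold higher (3.6% of all genes). In HCT116, 37 of 50 lay below control, where 39.2% of 12393 genes did, and 13 above it, where 60.8% did, and the median was -0.06 against 0.04 over all genes. These shares depend on the scaling: with TMM factors 38 members and 45.7% of all genes lay below control in SW480, and 46 members and 52% in HCT116. On the TPM scale 1 member in HCT116 was at least 1.2-fold lower (2.16% of all genes) and 0 were at least 1.2-fold higher (12.1% of all genes). No member differed by 1.5-fold in either line, a size that 0.879% of all genes passed downward and 0.534% upward in SW480, and 0.145% and 1.96% in HCT116. In bulk RNA fewer cells in S phase and less of these RNAs per cell cannot be told apart.

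The interval of the count ratio lay below 1 for 15 members in SW480 (14.2% of all genes) and for 19 in HCT116 (11.7% of all genes). It lay above 1 for 1 member in SW480, POLD2 (13.6% of all genes), and for 0 in HCT116 (17.1% of all genes). It lay below 1 in both lines for 7 members and for 1.88% of the 11332 genes tested in both. These were MCM2, MCM4, MCM5, MCM7, POLD3, POLE3 and TIMELESS, which encode helicase subunits, polymerase accessory subunits and a fork protection factor. Well-counted genes pass this rule at smaller differences, so it says less about the size than about the counts.

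**Figure D2:**
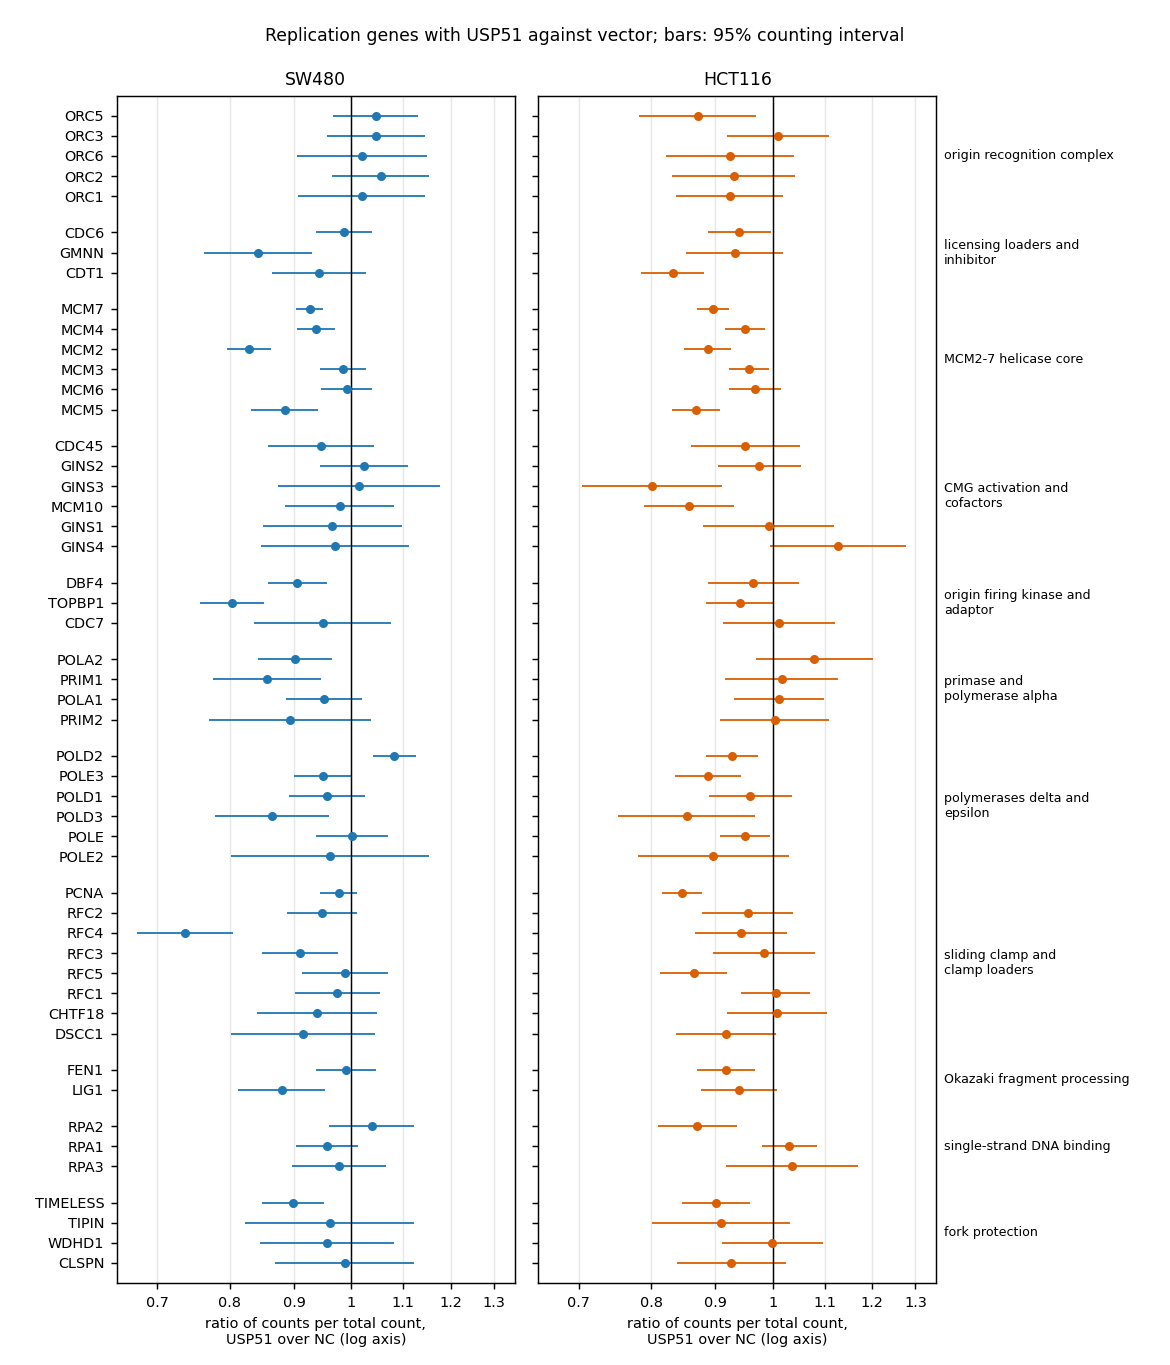
Ratio of counts per total count, USP51 over NC (log axis), for each member in SW480 (left) and HCT116 (right), with 95% exact counting intervals. Most points lie left of the line at 1; RFC4 in SW480 lies furthest left at 0.737, and the ORC genes sit right of 1 in SW480 at 1.019 to 1.055.

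The origin recognition complex marks the sites where helicases are loaded. In SW480 its genes hardly differed, with 3 of 5 above control and a median log2 ratio of 0.01. ORC5 (chromosome 7, 104126341 to 104208013, GRCh38) was the most abundant in both control groups, with 70.6 and 71.1 TPM in SW480 and 42.9 and 38.2 TPM for HCT116, there a count ratio of 0.872 (0.782 to 0.970). With USP51 in HCT116 the most abundant was ORC6, at 40.2 TPM. In HCT116 4 of 5 lay below control, with ORC3 as the exception at 38.0 and 39.3 TPM. In FPKM and in counts per total count all 5 ORC genes lay above control in SW480, and with curated transcripts alone 4 of 5 lay below it, so the sign in SW480 is not settled.

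The loaders CDC6 and CDT1 and their inhibitor geminin lay below control in both lines. CDT1 (chromosome 16, 88803789 to 88809258), the protein that geminin holds in check, was at 42.7 and 39.0 TPM in SW480 and 102.6 and 87.0 TPM for HCT116. Its count ratio was 0.942 (0.864 to 1.03) in SW480 and 0.832 (0.785 to 0.882) in HCT116, where its log2 ratio of -0.23 ranked second in size among the members. Geminin showed the larger difference in the other line. GMNN (chromosome 6, 24774937 to 24786099) was at 85.0 and 69.6 TPM in SW480, a count ratio of 0.843 (0.763 to 0.930), and at 100.8 and 95.6 TPM in HCT116, a ratio of 0.933 (0.853 to 1.020). CDC6, an ATPase that brings the helicase to ORC, differed least of the 3 on the TPM scale, at 94.4 and 90.4 TPM in SW480 and 74.8 and 72.3 TPM in HCT116. With curated transcripts alone its log2 ratio in HCT116 was -0.15, further from control than the -0.08 of GMNN.

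All 6 subunit genes of the MCM2-7 helicase lay below control in both lines. Their median log2 ratio was -0.15 in SW480 and -0.09 in HCT116. MCM2 (chromosome 3, 127598411 to 127622436) was at 154.2 and 123.9 TPM in SW480, a count ratio of 0.829 (0.796 to 0.863), and at 136.9 and 123.8 TPM in HCT116, a ratio of 0.887 (0.850 to 0.926). MCM5 (chromosome 22, 35400140 to 35455031) was lower by like amounts in both lines, at 67.2 and 57.1 TPM in SW480 and 137.9 and 120.8 TPM in HCT116, with count ratios of 0.884 (0.831 to 0.941) and 0.868 (0.830 to 0.907). With curated transcripts alone its log2 ratio was -0.15 in SW480 and -0.10 in HCT116, in place of -0.23 and -0.19. MCM7 (chromosome 7, 100092728 to 100101397), the most abundant subunit, was at 573.1 and 514.6 TPM in SW480 and 414.2 and 378.4 TPM for HCT116. MCM6 differed least, at 98.5 and 94.7 TPM and at 94.9 and 93.7 TPM. In SW480 it lay above control in counts scaled with TMM or RLE factors, leaving 5 of 6 below. The subunits, which form a ring with 1 copy of each, spanned 8.53-fold in transcript level in SW480 controls and 4.36-fold in HCT116 controls.

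On the TPM scale the genes that complete and stabilise the CMG helicase split between the lines. In SW480 all 6 lay below control, by a median log2 ratio of -0.08, and no interval excluded 1; the count ratios of GINS2 (1.023) and GINS3 (1.015) lay above 1 there, and 4 of 6 genes lay below control in FPKM and under every count scaling. In HCT116 the genes lay on both sides, with 4 of 6 below control on the TPM scale. In FPKM and under every count scaling 5 of 6 lay below it there, so the contrast of the lines was not kept. GINS3 (chromosome 16, 58392471 to 58406147), which encodes a subunit of the 4-member GINS complex, had the lowest log2 ratio of all members there, -0.29, at 27.8 and 22.6 TPM, a count ratio of 0.801 (0.704 to 0.912). In SW480 it was at 18.0 and 17.6 TPM. GINS4 (chromosome 8, 41529261 to 41545030), another subunit of that complex, lay on the other side in HCT116, at 13.5 and 15.4 TPM, with an interval that included 1 (ratio 1.13, 0.995 to 1.28), and had 12.04 and 11.3 TPM in SW480. MCM10 (chromosome 10, 13161558 to 13211110), which helps activate the helicase, was at 27.6 and 24.1 TPM in HCT116 (ratio 0.857, 0.789 to 0.931) and at 17.6 and 16.7 TPM in SW480. CDC45 was at 50.2 and 46.2 TPM in SW480 and 49.1 and 47.4 TPM in HCT116, and GINS2 at 47.7 and 47.3 TPM and at 55.1 and 54.8 TPM.

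Of the firing factors, TOPBP1 had the clearest difference, and in SW480. TOPBP1 (chromosome 3, 133600238 to 133661941), a scaffold that helps load CDC45 and also activates the checkpoint kinase ATR, was at 46.0 and 35.7 TPM in SW480, a count ratio of 0.803 (0.757 to 0.851). In HCT116 it was at 39.2 and 37.7 TPM, a ratio of 0.942 (0.885 to 1.002). DBF4 (chromosome 7, 87876493 to 87909553), the regulatory subunit of the CDC7 kinase, was at 78.1 and 68.5 TPM in SW480 (ratio 0.905, 0.857 to 0.956) and at 32.3 and 31.8 TPM in HCT116. CDC7 itself was at 16.5 and 15.1 TPM and at 24.2 and 25.0 TPM. All 3 genes lay below control in SW480, and 2 of 3 in HCT116, where CDC7 also lay below with TMM or RLE factors.

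Primase and polymerase alpha lay on opposite sides of control in the lines on the TPM scale. All 4 genes were lower in SW480, with a median log2 ratio of -0.21, the lowest of all roles. All 4 were higher in HCT116, with a median of 0.05 close to the 0.04 of all genes, and there every interval included 1. POLA2 (chromosome 11, 65261962 to 65305985), the regulatory subunit of polymerase alpha, was at 76.0 and 64.4 TPM in SW480 (ratio 0.902, 0.843 to 0.966) and at 28.5 and 31.0 TPM in HCT116 (ratio 1.08, 0.969 to 1.201). PRIM1 (chromosome 12, 56731580 to 56752323), the catalytic subunit of primase, was at 72.7 and 60.4 TPM in SW480 (ratio 0.857, 0.776 to 0.945) and at 61.1 and 63.2 TPM in HCT116 (ratio 1.016, 0.916 to 1.13). The sign in HCT116 depends on the scaling: with TMM or RLE factors 3 of the 4 lay below control and POLA2 above it. With curated transcripts alone POLA2 had a log2 ratio of 0.01 in SW480. The reads of PRIM2, at 18.2 and 16.0 TPM in SW480, may be mixed with those of its pseudogene copy PRIM2BP.

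Genes of polymerases delta and epsilon lay below control in all 6 cases in HCT116 and in 5 of 6 in SW480, or 4 of 6 there in counts with TMM, RLE or no factors. POLD3 (chromosome 11, 74592582 to 74669341), an accessory subunit of polymerase delta, was at 24.6 and 20.3 TPM in SW480 and 17.5 and 15.4 TPM for HCT116, with count ratios of 0.864 (0.778 to 0.959) and 0.854 (0.752 to 0.969). It was the member just past 1.2-fold in SW480, at a log2 ratio of -0.27, and PRIM1 was just short of it at -0.26. POLD2 (chromosome 7, 44114680 to 44124325), the abundant small subunit of the same enzyme, was on the other side in SW480, at 327.1 and 343.8 TPM (ratio 1.08, 1.04 to 1.13). In HCT116 it was at 251.4 and 237.4 TPM (ratio 0.928, 0.885 to 0.973). POLE, the catalytic subunit of polymerase epsilon, was at 22.7 and 22.0 TPM and at 50.6 and 49.4 TPM. POLE3, a histone-fold subunit, was at 144.2 and 132.7 TPM and at 113.9 and 103.0 TPM. POLD1 lay at 49.7 and 46.0 TPM in SW480 and 41.2 and 40.3 TPM in HCT116, and POLE2 at 16.3 and 15.2 TPM and at 29.7 and 28.0 TPM.

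The clamp and clamp loader genes included the member furthest from control in SW480 and, in PCNA, one of the 3 furthest in HCT116. RFC4 (chromosome 3, 186789900 to 186806482), a subunit of the loader that opens the PCNA ring, had 103.2 and 73.7 TPM in SW480, with a count ratio of 0.737 (0.675 to 0.804) and a log2 ratio of -0.48, the lowest of the 50. In HCT116 it was at 98.2 and 94.4 TPM, a ratio of 0.943 (0.867 to 1.03). PCNA (chromosome 20, 5114953 to 5126622) showed the reverse pattern, at 621.8 and 589.9 TPM in SW480 (ratio 0.977, 0.944 to 1.011) and at 603.4 and 520.5 TPM in HCT116 (ratio 0.847, 0.816 to 0.878). RefSeq lists 4 pseudogenes named after PCNA, so some of its reads may be shared with such copies. All 8 genes of this role lay below control in SW480, with a median of -0.10, and 6 of 8 in HCT116. The count in HCT116 was 8 of 8 with TMM or RLE factors and 4 of 8 with curated transcripts alone, where the median was -0.00. RFC1, the large subunit of the loader, and CHTF18, of an alternative loader, were the 2 above control in HCT116 on the TPM scale and below it with TMM factors, at 40.3 and 41.4 TPM and at 34.8 and 36.2 TPM. The alternative loader's other member DSCC1 was at 48.7 and 45.5 TPM there.

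The remaining roles followed with small differences. FEN1, the flap endonuclease that trims Okazaki fragments, was at 142.3 and 136.8 TPM in SW480 and 157.6 and 147.3 TPM for HCT116. LIG1, the ligase that joins them, was at 44.2 and 37.7 TPM (ratio 0.880, 0.813 to 0.952) and at 55.2 and 52.9 TPM. Both lay below control in both lines on this scale, and FEN1 lay above it in SW480 with TMM or RLE factors. Of the genes for RPA, which coats single-stranded DNA, RPA2 was at 92.4 and 93.1 TPM in SW480 and 115.2 and 102.0 TPM for HCT116 (ratio 0.871, 0.809 to 0.937). RPA1 and RPA3 lay above control in HCT116, at 83.4 and 88.9 TPM and at 28.9 and 30.4 TPM. For RPA1 this rests on a predicted transcript that held 76.1% of the gene in HCT116 controls: with curated transcripts alone its log2 ratio was -0.10, and 2 of the 3 RPA genes lay below control. The fork protection genes were below control in SW480 in all 4 cases and in HCT116 in 3 of 4. With curated transcripts alone 2 of 4 were below in SW480, where WDHD1 was at 0.11 and CLSPN at 0, and in FPKM and under every count scaling all 4 were below in HCT116. TIMELESS was the most abundant of them, at 49.0 and 42.7 TPM in SW480 (ratio 0.899, 0.849 to 0.952) and at 41.6 and 38.2 TPM in HCT116 (ratio 0.9004, 0.846 to 0.958). Its partner TIPIN was at 20.6 and 19.1 TPM and at 31.1 and 29.0 TPM, and CLSPN at 8.27 and 7.91 TPM and at 13.7 and 13.1 TPM. WDHD1, which ties polymerase alpha to the helicase, was at 9.60 and 8.77 TPM in SW480 and 16.3 and 16.5 TPM for HCT116.

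The response of each member was then compared between the lines, whose groups share no libraries. Of the 50 members, 33 (66%) lay below control in both lines, against 23.2% of 11332 genes tested in both. Another 12 were below in SW480 and above in HCT116, as were 38.1% of all genes. The reverse held for 4 members (ORC2, ORC5, POLD2 and RPA2) and 17.4% of all genes, and 1 member, ORC3, was above in both, as were 21.2%. This split depends on the scaling. With TMM factors 12 members lay above control in SW480 and 4 others in HCT116, where ORC3 was below it at -0.01. The log2 ratio in HCT116 minus that in SW480 had a median of 0.07 over the members and 0.08 over all genes, and it was above 0 for 37 members (74%) and 65% of all genes. The members' median reversed with FPKM and with all count-based scalings, to -0.05 with TMM factors, where that of all genes was -0.02. No order of the lines in the size of the members' response can be read from these means.

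Single members differed more between the lines. The difference was highest for RFC4, at 0.42, then POLA2 (0.36), PRIM1 (0.31), TOPBP1 (0.30) and GINS4 (0.27). On the TPM scale these 5 were at least 1.2-fold apart with the HCT116 ratio higher, as were 20.9% of all genes. On that scale 0 were so with the HCT116 ratio lower, as were 4.81%. GINS3, at -0.26, was the member furthest in the other direction and just short of that size. This split depends on the scaling. With TMM factors GINS3 (0.04 in SW480 and -0.33 in HCT116) lay further apart than RFC4 (-0.42 and -0.11). ORC5 (0.08 and -0.22) then passed 1.2-fold with the HCT116 ratio lower, and POLA2 (-0.13 and 0.08) no longer passed it. None of these differences was tested against replicate spread.

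**Figure D3:**
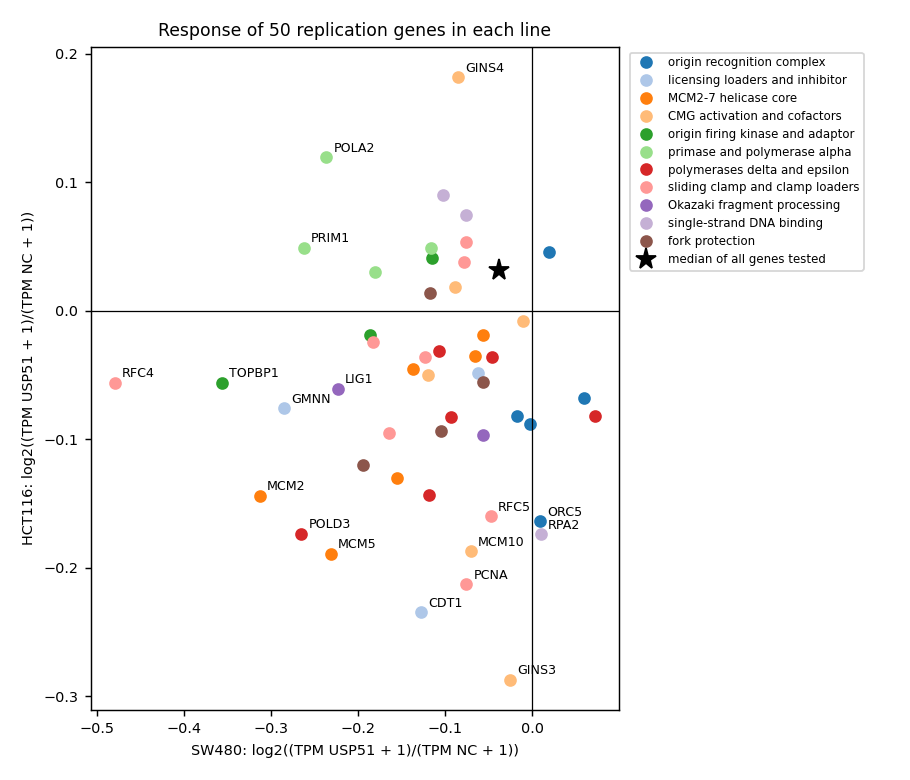
Log2 ratio with USP51 in SW480 (horizontal) and HCT116 (vertical) for the 50 members, coloured by role, with the median of all genes tested as a star. The lower left quadrant holds 33 members, and the 4 primase and polymerase alpha genes lie in the upper left.

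Other cell cycle genes were set beside the members, from lists chosen by function. Of all genes tested, 61.1% lay below control in SW480, with 10.1% at least 1.2-fold lower, and 39.2% lay below it in HCT116. With TMM factors the share below control in HCT116 was 52%. Of 46 other replication genes tested in SW480 34 lay below control, with a median of -0.09, and of 47 in HCT116 25 did, with a median of -0.02. With curated transcripts alone the HCT116 median was 0.00. Under TMM or RLE factors 35 of the 47 lay below control in HCT116, with medians of -0.07 and -0.06. These genes include fork repair and checkpoint factors, and the one furthest from control in SW480 was the checkpoint kinase gene ATR (count ratio 0.698, 0.636 to 0.767). E2F target genes outside the replication machinery had lower medians than the members, with 27 of 28 below control in SW480 (median -0.17) and 22 of 28 in HCT116 (median -0.09). Their medians were below 0 under every scaling. Among them CCNA2, the S and G2 phase cyclin, was at 90.7 and 71.2 TPM in SW480, RRM2, a subunit of the enzyme that makes deoxynucleotides, was at 332.3 and 266.6 TPM there, and E2F8, a repressor of that family, was at 20.6 and 16.6 TPM in HCT116. Mitosis genes differed most between the lines. All 30 lay below control in SW480, by a median of -0.31 and 25 of them by at least 1.2-fold, while in HCT116 8 of 30 lay below, with a median of 0.05. HMMR, a spindle-associated protein gene, had 66.9 and 47.6 TPM in SW480, with 47.4 and 55.9 TPM for HCT116. With TMM or RLE factors 16 of the 30 lay below control in HCT116, with medians of -0.01 and -0.00, so their side of control there depends on the scaling. In SW480 all 30 stayed below under every setting, with medians of -0.25 to -0.35. Whether the replication genes' values follow the share of cells in each cycle phase was not tested.

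**Figure D4:**
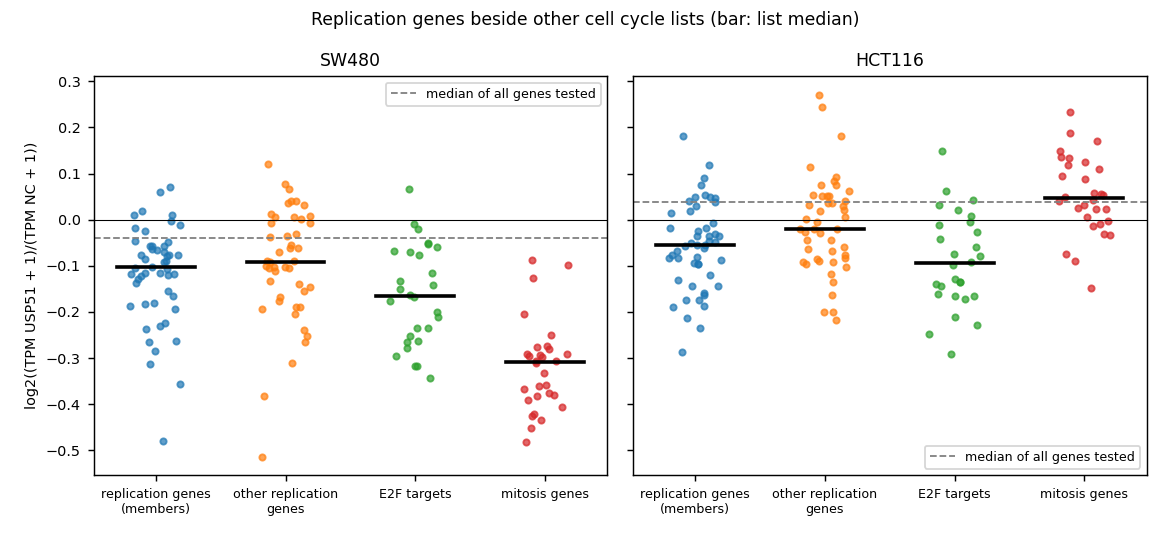
Log2 ratio with USP51 (vertical) for the 50 members and 3 other cell cycle lists in SW480 (left) and HCT116 (right); each point is a gene with at least 1 TPM, black bars are list medians and the dashed line the median of all genes tested. Mitosis genes have a median of -0.31 in SW480 and 0.05 in HCT116 (-0.01 with TMM factors), while the members have -0.10 and -0.06.

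Abundance and transcript length were examined as properties that can move with a ratio. In HCT116 the members' log2 ratio had a Spearman rho of -0.34 with TPM and 0.28 with counts per TPM, which stands for transcript length, beside -0.29 and 0.20 over all genes tested. In SW480 the values were -0.11 and -0.03 for the members, and 0.06 and -0.12 for all genes. These are correlations across genes of the same libraries, and their part in the members' values was not tested.

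The control cells of the lines were compared through the same NC means that serve the comparisons with USP51. The members' log2 ratios of HCT116 over SW480 ran from -1.39 to 1.24, a wider range than with USP51 in either line. Of the 50, 26 were higher in HCT116 (53.3% of 13033 genes) and 24 in SW480 (46.7%). At least 1.2-fold separated 20 with the higher level in HCT116 (40.8% of all genes) and 14 in SW480 (34.8%), and the counting interval lay above 1 for 23 (45.1%) and below 1 for 20 (38.8%). At least 1.5-fold separated 11 members with the higher level in HCT116 (27% of all genes) and 6 with the higher level in SW480 (22.6% of those genes), and at least 2-fold separated 4 and 2 (14.7% and 13.4%). PRIM2, at a log2 ratio of 0.99 and a count ratio of 2.06, was just short of that size because of the pseudocount, and would make 5 by the ratio of TPM itself. The licensing factor CDT1, at 42.7 TPM in SW480 and 102.6 TPM in HCT116, had the largest ratio towards HCT116 (2.38, 2.22 to 2.56). POLE (chromosome 12, 132623762 to 132687342), at 22.7 and 50.6 TPM, had a ratio of 2.22 (2.10 to 2.35), and MCM5 and DSCC1 ratios of 2.04 and 2.06. Towards SW480, POLA2 was at 76.0 TPM in SW480 and 28.5 TPM in HCT116 (ratio 0.373, 0.341 to 0.409), and DBF4 at 78.1 and 32.3 TPM (ratio 0.410, 0.383 to 0.440). The partners CDC7 and DBF4 were ordered differently, since CDC7 was higher in HCT116 at 24.2 TPM against 16.5 TPM. For primase the catalytic PRIM1 was higher in SW480 and PRIM2 higher in HCT116, at 37.2 against 18.2 TPM.

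Members were also grouped by chromosome, a view chosen after the values were seen. Of 14 chromosomes with 2 or more members, the members differed in 1 direction between the lines on 6 and in both directions on 8, such as chromosome 12, where PRIM1 and TIMELESS were higher in SW480 and RFC5 and POLE in HCT116. All 6 members on chromosome 7 (DBF4, RPA3, RFC2, ORC5, MCM7 and POLD2) were higher in SW480 controls, with a median log2 ratio of -0.71, and 69.6% of all 629 genes tested on that chromosome were too, with a median of -0.46. All 5 on chromosome 16 (CDT1, GINS3, CHTF18, GINS2 and ORC6) were higher in HCT116, with a median of 0.49 beside 0.34 for all genes there. The same held for the 4 on chromosome 1 (median 0.54, all genes 0.30), whereas all 3 on chromosome 3 (TOPBP1, MCM2 and RFC4) were higher in SW480 (median -0.17, all genes -0.13). On 18 of 20 chromosomes with members, the members' median had the sign of the median of all genes tested there, the exceptions being chromosomes 14 and 20. Chromosomes 4, 9, 10, 13, 15 and X held 1 member each, so the median there is a single gene. On chromosomes 17 and 19 the members' medians were -0.02 and 0.02, with 1 member on each side of 0. Chromosome copy number was not measured, and its part in these values was not tested.

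**Figure D5:**
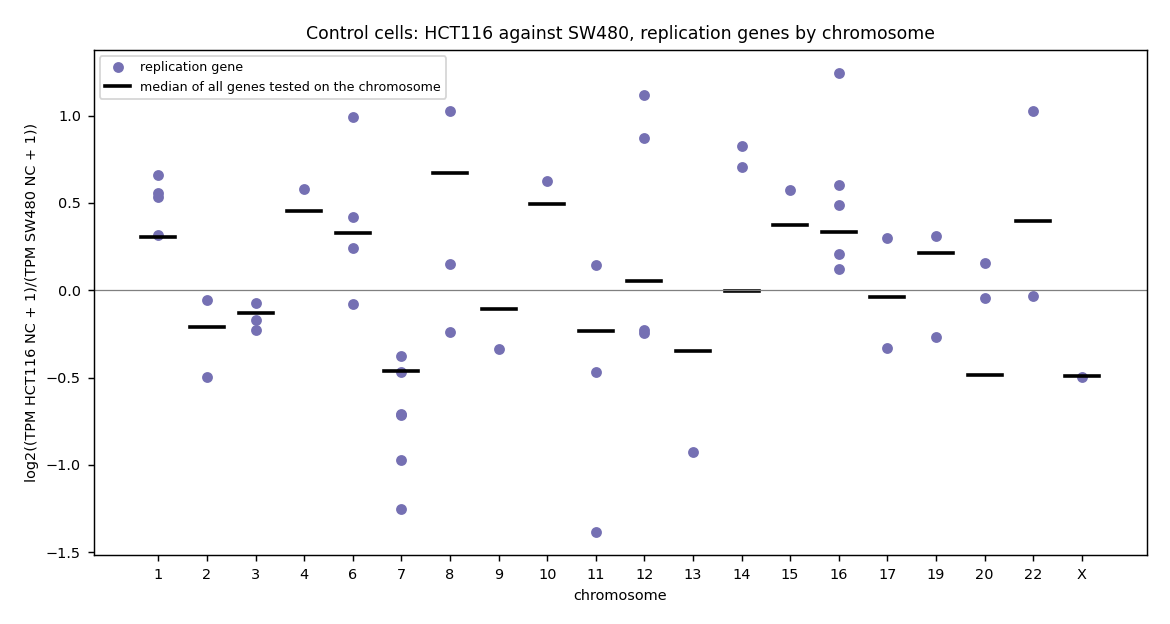
Log2 ratio of HCT116 over SW480 in control cells (vertical) for each member by chromosome (horizontal); points are members and black bars the median of all genes tested on that chromosome. All 6 points on chromosome 7 lie below 0 and all 5 on chromosome 16 above it.

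The table lists transcripts, so the composition of each gene could be read. The 50 members had 230 transcripts, 122 curated and 108 predicted by RefSeq, with 1 to 12 per gene, and 7 members had 1 transcript. For 18 members a single transcript held at least 90% of the gene's TPM in every group, among them RFC4, PCNA, MCM2 and MCM7. In all 50 the leading transcript was the same in all 4 groups. RFC4 was lower in SW480 in both of its main transcripts, at 95.5 and 68.3 TPM for the first and 7.67 and 5.46 TPM for the second.

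Some genes differed in composition between lines or groups. The second transcript of GINS3 made up 14.97% and 13.01% of the gene in SW480 and 35.1% and 30.3% in HCT116, and its level in HCT116 was 9.77 and 6.86 TPM. The leading transcript of RFC5 held 63.1% in SW480 controls and 44.9% in HCT116 controls, and in HCT116 it had 50.3 and 53.7 TPM, while the whole gene had 111.8 and 99.96 TPM. The RFC5 difference in HCT116 therefore lay in predicted transcripts and had the other sign in curated ones, at a log2 ratio of 0.09. In POLA1 the second transcript had 0.453 and 5.29 TPM in HCT116, with the whole gene at 20.7 and 21.5 TPM. Reads may also be shared between genes, since 9 members overlap another gene with rows in the table, among them MCM7 with AP4M1, RPA3 with UMAD1 and ORC3 with AKIRIN2, and the strand setting of the counting is unknown here. Transcripts of a gene share most of their sequence, so the assignment of reads among them is uncertain, and no replicate check was made.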

How the data were processed

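Gene expression was measured in 12 libraries (3 per group), of which the authors' group means were used. Per the file headers, the deposited table gives estimated counts, TPM and FPKM for each RefSeq transcript. Deposited TPM values sum to the same total in every column, and the deposited estimated counts are not divided by depth. TopHat, DESeq 1.32.0 and hg38 are named in the submitters' processing notes, while no source used here names the counting tool or its strand setting. The 36 columns of single libraries carry codes that match no label and were not used, so the fits and tests planned for single libraries were left out.

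Transcripts were summed per gene identifier, and 17672 of 17818 identifiers had a symbol in RefSeq's table for GRCh38.p14. Log2 ratios used a pseudocount of 1 TPM and a filter of 1 TPM in 1 of the 2 groups, and intervals are exact Clopper-Pearson on rounded means (scipy 1.17.1, Python 3.11.15). Scaling factors for the alternatives came from edgeR 4.0.16 (R 4.3.3). Scripts were tested on simulated counts with counting error only, so that test does not cover spread between libraries. The members and lists were chosen with earlier results of these data known. Named were the 5 members with the largest differences per comparison and the most abundant of each role; other members are given by level, and other lists by counts and up to 3 genes. VIL1, CD68, POLD2 as the one interval above 1, and the transcript and chromosome examples were picked after their values were seen. Copies and antisense genes can share reads: 28 members overlap another gene of the RefSeq table and 11 have a pseudogene named after them.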

Additional observations from a re-analysis of the deposited data

How the results depend on the processing

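No paired analysis was possible because the columns used are group means and carry no replicate numbers. The columns of single libraries were not used, since their codes match no label, so no library was left out and DESeq2 was not run. Relative to all genes, the members' median was lower by 0.06 to 0.09 (log2) in SW480 and by 0.07 to 0.11 in HCT116 under every setting tried (pseudocount 0.1, FPKM, counts per total count with no, TMM, RLE or upper-quartile factors, curated transcripts, no filter and 10 TPM). The number of members below control ranged from 38 to 45 in SW480 and from 37 to 46 in HCT116. The share of all genes ranged from 45.7% to 61.3% and from 36% to 52%. Below 0 under every setting were 34 members in SW480 and 35 in HCT116, and above 0 were 3 in each. Signs kept under every setting were not counted over all genes, nor were the 1.2-fold counts under the other settings. The sign of 13 in SW480 (CLSPN among them, at 0 with curated transcripts) and 12 in HCT116 was not kept. Between control groups none of the 50 changed sign. Members at least 1.2-fold lower in SW480 numbered 3 with FPKM, unscaled or upper-quartile counts, 2 with TMM or RLE and 6 with a pseudocount of 0.1, in place of 5. In HCT116 they numbered 2 with unscaled or upper-quartile counts or curated transcripts and 3 with TMM or RLE, in place of 1, and with curated transcripts 1 was at least 1.2-fold higher. The median difference between the lines' responses reversed to -0.0022 with FPKM, -0.0065 with unscaled counts, -0.049 with TMM, -0.045 with RLE and -0.0095 with upper-quartile factors. TMM moved the median of all genes in this difference by -0.10. The number of members with a lower ratio in HCT116 became 26, 25, 32, 32 and 26 under these settings, in place of 13. The share of all genes became 48.5%, 46.5%, 54.1%, 53.5% and 47.1%, in place of 35%, and the cause was not tested. Values of named members were compared with the main log2 ratio, allowing the reach of the counting interval to 1 side. For the difference between lines the 2 intervals were combined. Of 639 values under other settings, 585 stayed within this reach and 54 moved further. Dropping the filter or raising it to 10 TPM cannot move a member's ratio, so all 71 values stayed under each. With TMM factors 21 of 71 moved, and with RLE factors 19. Counts of members below control were added after seeing the data. Counting precision is lowest for members near 239 counts.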

Other observations

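HLTF, a fork remodelling helicase gene that is no member, was listed at 0 and 0.0633 TPM in SW480, whereas HCT116 had 24.5 and 29.1 TPM. A curated transcript of POLE2 was listed at 0 in both control means and stood at 2.48 TPM in SW480 and 2.23 TPM in HCT116 with USP51, on 36.9 and 31.1 counts. The predicted leading transcript of POLA2 was at 37.9 and 28.8 TPM in SW480, while the leading curated one was at 16.8 and 17.0 TPM. All 3 were chosen with their values in view.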
